A study of Mus musculus with 9 samples.

Results

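The genes described here are 7 mouse genes that handle or sense extracellular nucleotides, NAD and adenosine: Entpd1, Nt5e, Cd38, Adora2a, P2rx7, P2rx4 and Ada. They were taken by name from a deposited table of 25759 genes, and all 7 were in the table. The choice was made with earlier results of these data known, so it was not blind to the values. RNA sequencing libraries of CD4+ T cells formed 3 groups of 3. The activated BMPR1a knockout group came from mice labelled BMPR1a/CD4cre, in which a Cre recombinase driven by the Cd4 promoter, active in developing T cells, is used to delete Bmpr1a, the gene of a receptor kinase for bone morphogenetic proteins. The activated wild-type (WT) group had no such deletion. In both activated groups, mixed spleen and lymph node cells were kept for 3 days with the mitogen ConA at 2 ug/ml and LPS at 10 ng/ml, and CD4+, CD44+ and Foxp3GFP- cells were then sorted. The naive WT group was sorted from the same organs without treatment as CD4+, CD44- and Foxp3GFP- cells. All mice were C57BL/6, 8 to 12 weeks old, and carried a Foxp3GFP reporter transgene, so cells with reporter signal were sorted away in every group. No label says that replicates were separate mice or cultures, and p-values therefore measure only the spread between these libraries.

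ATP that leaves a cell opens P2X channels, among them P2rx7 and P2rx4, at the surface of its neighbours. Entpd1 (the CD39 protein) strips phosphates from ATP and ADP to leave AMP, Nt5e (CD73) turns AMP into adenosine, and Cd38 breaks down NAD. Adenosine binds Adora2a, a receptor that raises cyclic AMP through Gs and restrains T cell activation, and Ada converts adenosine to inosine. Loss of ADA causes severe combined immunodeficiency in humans.

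Levels are FPKM, in which fragments are scaled to transcript length and library size, so they are per length and genes can be set side by side. The read depth is unknown. Between 12922 and 13395 genes per library reached 1 FPKM. The targeted Bmpr1a was read at 0.957, 1.93 and 1.20 FPKM in the activated knockout libraries, 2.16, 2.92 and 1.40 FPKM in the activated WT libraries and 0.460, 0.311 and 0.336 FPKM in the naive WT libraries. The knockout and activated WT ranges overlapped and the log2 fold change of -0.41 was not called (limma adjusted p = 0.261), so this gene-level value does not separate the groups, and the deleted part of the gene was not measured on its own. T cell markers were high in all libraries: 6 of them summed to 1765 to 2001 FPKM in knockout, 2019 to 2171 FPKM in activated WT and 1666 to 1839 FPKM in naive WT libraries. Markers of other cells were present too. The CD8 genes Cd8a and Cd8b1 summed to 220 to 279 FPKM in knockout, 147 to 230 FPKM in activated WT and 9.48 to 41.4 FPKM in naive WT libraries. A list of 7 myeloid markers summed to 3.93 to 6.65 FPKM in knockout and 4.48 to 6.29 FPKM in activated WT libraries, with S100a8 and S100a9 listed at 0 in at least 1 library of each, but to 69.0, 795 and 154 FPKM in the naive WT libraries. A list of 6 B cell markers summed to 130 to 196 FPKM in knockout, 140 to 177 FPKM in activated WT and 56.9, 3.13 and 183 FPKM in naive WT libraries. How much each of these cell types contributed to the results below was not tested, and in bulk samples fewer cells of a type cannot be told apart from less RNA per cell.

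The members spanned a wide range of levels within each group. In activated knockout libraries the order of the means was P2rx4 (20.5 FPKM), Adora2a (18.6), Entpd1 (11.6), Ada (10.9), Cd38 (6.94), P2rx7 (5.37) and Nt5e (1.88), and the libraries of P2rx4 and Adora2a, of Entpd1 and Ada, and of Cd38 and P2rx7 overlapped. In activated WT libraries it was P2rx4 (23.8 FPKM), Adora2a (21.7), Entpd1 (7.30), Cd38 (6.22), Ada (5.56), P2rx7 (4.84) and Nt5e (3.24), and each neighbouring pair overlapped except Adora2a with Entpd1 and Entpd1 with Cd38. In naive WT libraries it was P2rx4 (14.8 FPKM), Nt5e (12.7), Adora2a (8.65), P2rx7 (6.25), Ada (4.39), Entpd1 (1.90) and Cd38 (1.72), with overlap between P2rx4 and Nt5e and between Entpd1 and Cd38. Nt5e was thus the second highest of the 7 in naive cells and the lowest in both activated groups.

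**Figure D1:**
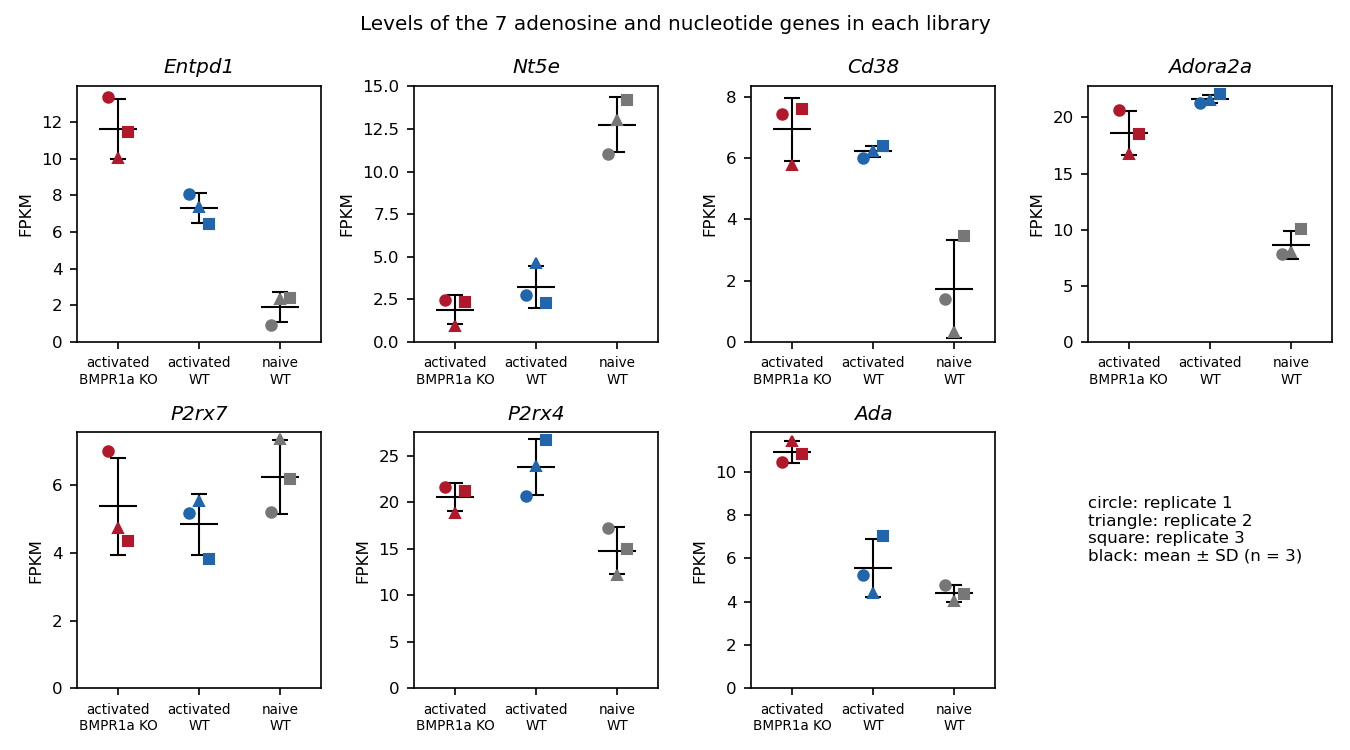
FPKM of the 7 genes (one panel each, y axes in FPKM from 0) in the 3 libraries of the activated BMPR1a knockout, activated WT and naive WT groups; symbols mark replicates 1, 2 and 3 and black bars the mean ± SD (n = 3). Nt5e is high in the naive WT libraries (11.0 to 14.2 FPKM), Entpd1, Cd38, Adora2a and P2rx4 are low there, and Ada is high in the knockout libraries (10.4 to 11.4 FPKM).

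The comparison of activated WT with naive WT cells asked how these genes differ with 3 days of stimulation, although culture, stimulation and the sort gate change together. Entpd1, Cd38, Adora2a and P2rx4 were higher in activated WT cells, Nt5e was lower, and P2rx7 and Ada did not pass the test. Expression was tested on the log2(FPKM + 1) scale with limma over 15126 genes, and a gene was called at a Benjamini-Hochberg adjusted p under 0.05. By that rule 4 of the 7 were called higher and 1 lower, where 26.2% of all tested genes were called higher, 25.8% lower and 52.0% in either direction. The groups of libraries did not overlap for 5 of the 7, against 59.4% of all tested genes. Beside such a background these counts do not set the 7 genes apart. Their median log2 fold change was 0.66, beside -0.01 for all tested genes. All 5 calls held under each of 19 alternative settings.

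The enzymes at the head of the chain moved in opposite directions. Entpd1 (chr19:40612366-40741602, plus strand, GRCm38) was read at 8.09, 7.39 and 6.43 FPKM in activated WT libraries and at 0.935, 2.35 and 2.41 FPKM in naive WT libraries. Every activated library lay above every naive one, with naive replicate 1 the lowest. The mean was 7.30 ± 0.832 FPKM in activated WT and 1.90 ± 0.835 FPKM in naive WT cells (SD, n = 3 each), a log2 fold change of 1.56 (SE 0.222, limma adjusted p = 0.000773). The processed pseudogene Gm8783 overlaps Entpd1 on the same strand. Its means were 1.42 FPKM in activated WT and 2.73 FPKM in naive WT libraries, the latter above that of Entpd1. How reads were assigned between Gm8783 and Entpd1 is not given. Nt5e (chr9:88327197-88372092, plus strand) was read at 2.77, 4.64 and 2.30 FPKM in activated WT libraries and at 11.0, 13.02 and 14.2 FPKM in naive WT libraries. The groups did not overlap, and the gap between the highest activated and the lowest naive library was wider than the range of either group. The mean was 3.24 ± 1.24 FPKM in activated WT and 12.7 ± 1.60 FPKM in naive WT cells (SD, n = 3 each), a log2 fold change of -1.73 (SE 0.273, limma adjusted p = 0.00129).

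The same values of the pair were also read within each library as the log2 ratio of Entpd1 over Nt5e, with 1 FPKM added to both. It was 1.27, 0.57 and 1.17 in activated WT libraries and -2.64, -2.07 and -2.16 in naive WT libraries. Entpd1 therefore stood above Nt5e in every activated WT library and below it in every naive one. As neither gene overlapped between the groups and they moved in opposite directions, the ratios could not overlap. The permutation p was thus fixed in advance at its smallest value and adds no support. The group means differed by 3.29 log2 units (exact permutation test, two-sided, p = 0.1, the smallest that 3 against 3 libraries allow; 0.15 after Benjamini-Hochberg adjustment over the 6 ratio tests of this kind).

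The promoter of Entpd1 held TGACG, the core of the cAMP response element, which is bound by factors of the CREB and CREM family, which act downstream of Gs-coupled receptors. Whether such factors bind this promoter or act on Entpd1 was not tested. The motif searched was TGACG on both strands, from 250 bases before to 50 after each start; the sequence, from RefSeq on GRCm38.p6, gives the 250 bases before the first start of Entpd1 (chr19:40612116-40612365, plus strand), with the motif in capitals as its reverse complement.
Entpd1 promoter: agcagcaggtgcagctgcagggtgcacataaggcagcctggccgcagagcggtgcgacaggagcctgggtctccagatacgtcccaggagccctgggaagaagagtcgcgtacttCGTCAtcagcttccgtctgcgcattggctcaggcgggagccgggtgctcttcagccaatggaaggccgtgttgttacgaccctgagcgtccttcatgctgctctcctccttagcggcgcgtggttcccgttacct
The match lies 135 bases before the start, and the second annotated Entpd1 start had 1 match 183 bases upstream. Of all 32851 promoters in the table, 20.8% held the motif, so a match is common. No match to the motif, to TGANTCA (AP-1, 7.81% of promoters) or to TTCNNNGAA (STAT, 8.3% of promoters) was found in the windows of Nt5e and Cd38. Both windows lie inside the annotated genes and overlap their exons, so the bases before the annotated gene starts were not searched there. Of the members, 6 could be matched to a promoter entry, Adora2a being the exception.

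Cd38, an ectoenzyme that cleaves NAD and is also abundant on mouse B cells, is on chromosome 5 (chr5:43868553-43912375, plus strand). It was read at 6.01, 6.25 and 6.39 FPKM in activated WT libraries and at 1.39, 0.327 and 3.46 FPKM in naive WT libraries. The activated values were close together and all above the naive ones, which were spread more widely. The mean was 6.22 ± 0.193 FPKM in activated WT and 1.72 ± 1.59 FPKM in naive WT cells (SD, n = 3 each), a log2 fold change of 1.58 (SE 0.374, limma adjusted p = 0.00865). Among naive libraries Cd38 had the same order as the B cell list: the library with 3.13 FPKM of B cell markers had the least Cd38 and the one with 183 FPKM had the most. The B cell list reached at most 177 FPKM in activated WT libraries and 183 FPKM in naive replicate 3, where Cd38 was 3.46 FPKM. Per 100 FPKM of B cell markers, Cd38 stood at 4.28, 4.09 and 3.61 in activated WT and 2.44, 10.5 and 1.89 in naive WT libraries. The part of B cells in the difference was not tested. Gm16015, an antisense gene within Cd38, was at a mean of 0.220 FPKM in activated WT and listed at 0 in naive WT libraries, and without a stated strand setting reads of either strand cannot be told apart.

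**Figure D2:**
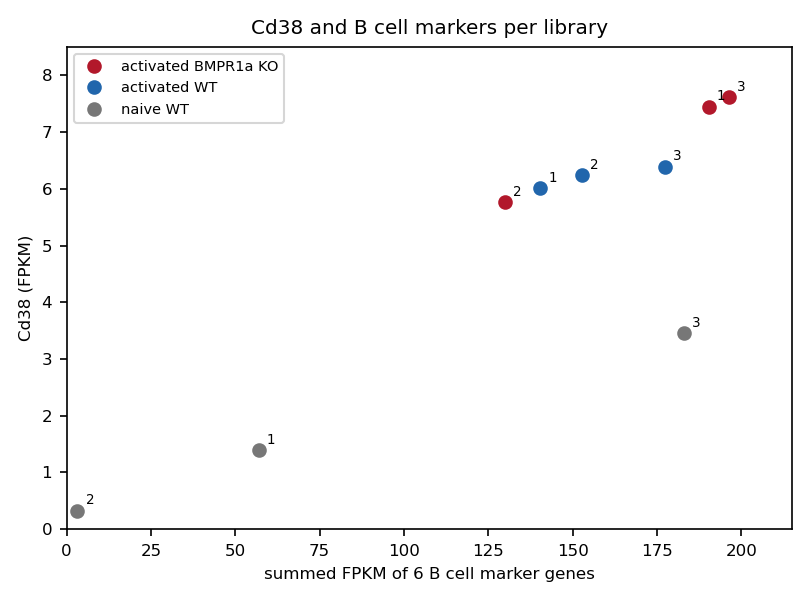
Cd38 (y axis, FPKM) against the summed FPKM of 6 B cell marker genes (x axis) in each of the 9 libraries, coloured by group and numbered by replicate. The 6 activated libraries lie between 5.77 and 7.61 FPKM of Cd38 at 130 to 196 FPKM of B cell markers. Naive replicates 1, 2 and 3 lie at 1.39, 0.327 and 3.46 FPKM of Cd38 and at 56.9, 3.13 and 183 FPKM of markers.

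Adora2a (chr10:75316877-75334784, plus strand), the only adenosine receptor gene that reached the level needed for testing, was read at 21.3, 21.6 and 22.1 FPKM in activated WT libraries and at 7.85, 8.02 and 10.1 FPKM in naive WT libraries. The activated libraries differed little among themselves and all lay well above the naive ones. The mean was 21.7 ± 0.387 FPKM in activated WT and 8.65 ± 1.24 FPKM in naive WT cells (SD, n = 3 each), a log2 fold change of 1.24 (SE 0.106, limma adjusted p = 7.15e-05). Of the other adenosine receptor genes, Adora2b and Adora3 were below the mean of 0.5 FPKM required, and Adora1 was not analysed here.

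The ATP-gated channel genes P2rx7 and P2rx4 are neighbours, 16111 bases apart on the plus strand of chromosome 5. P2rx4 (chr5:122707544-122729738) was read at 20.7, 23.9 and 26.7 FPKM in activated WT libraries and at 17.2, 12.2 and 14.9 FPKM in naive WT libraries. The groups did not overlap, though the lowest activated library was only a little above the highest naive one. The mean was 23.8 ± 2.99 FPKM in activated WT and 14.8 ± 2.53 FPKM in naive WT cells (SD, n = 3 each), a log2 fold change of 0.66 (SE 0.136, limma adjusted p = 0.00465). P2rx7 (chr5:122643911-122691432), a channel known in mouse T cells for its part in cell death driven by ATP or NAD, was read at 5.17, 5.54 and 3.81 FPKM in activated WT libraries and at 5.20, 7.38 and 6.17 FPKM in naive WT libraries. The groups overlapped, and the log2 fold change of -0.31 (95% interval -0.76 to 0.13) was not called (limma adjusted p = 0.208). The highest P2rx7 value of all was in naive replicate 2, the library with the most myeloid marker signal; the part of myeloid cells in it was not tested.

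Within libraries the log2 ratio of P2rx7 over P2rx4 was -1.81, -1.93 and -2.52 in activated WT and -1.56, -0.65 and -1.15 in naive WT cells. P2rx4 thus exceeded P2rx7 in all of them, by more in activated WT, and the groups did not overlap. The means differed by -0.97 (exact permutation test, two-sided, p = 0.1, adjusted p = 0.15). Given the P2rx4 and P2rx7 ranges above, the ratios could not overlap, so this p was fixed in advance and adds no support. The P2rx4 promoter also held the TGACG core, while Cd38, also called higher, had no match in its window and Adora2a had no promoter entry. The P2rx4 sequence, from RefSeq on GRCm38.p6, gives the 250 bases before the start (chr5:122707294-122707543, plus strand). The reverse complement of TGACG is in capitals.
P2rx4 promoter: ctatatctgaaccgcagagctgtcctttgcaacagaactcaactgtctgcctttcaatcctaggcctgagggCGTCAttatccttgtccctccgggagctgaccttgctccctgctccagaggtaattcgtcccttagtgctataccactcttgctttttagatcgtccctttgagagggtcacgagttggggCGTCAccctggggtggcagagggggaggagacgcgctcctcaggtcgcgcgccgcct
The matches begin 178 and 57 bases before the start. In P2rx7 the only match was to the AP-1 motif, as TGAGTCA, 249 bases before its first start. These are descriptions of letters and not of bound sites.

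Ada (chr2:163726584-163750239, minus strand) was read at 5.21, 4.42 and 7.03 FPKM in activated WT libraries and at 4.79, 4.01 and 4.38 FPKM in naive WT libraries. The ranges overlapped, with activated replicate 3 above the rest. The mean was 5.56 ± 1.34 FPKM in activated WT and 4.39 ± 0.388 FPKM in naive WT cells (SD, n = 3 each), a log2 fold change of 0.26 (95% interval -0.06 to 0.59) that was not called (limma adjusted p = 0.148). It was called in 1 of 19 alternatives, the one without activated WT replicate 2, the lowest of its group (limma adjusted p = 0.0445). In the other 18 it stayed uncalled. Across the 19 the log2 fold change ran from 0.046 to 0.39, with limma adjusted p up to 0.722.

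Whether these genes differ with the BMPR1a genotype was asked in activated cells of both lines. Ada was higher in knockout cells and was the only one of the 7 to pass the test. That is 1 of 7 called higher and none lower, where 3.30% of all tested genes were called higher, 0.840% lower and 4.14% in either direction. The groups of libraries did not overlap for 3 of the 7 (Ada, Entpd1 and Adora2a), against 31.2% of all tested genes. The median log2 fold change of the 7 was 0.11, beside 0.06 for all tested genes. At an unadjusted p under 0.05, 25.0% of all tested genes passed, and of the 7 Ada and Entpd1 did.

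Ada was read at 10.4, 11.4 and 10.9 FPKM in knockout libraries and at 5.21, 4.42 and 7.03 FPKM in activated WT libraries. The knockout values lay close together and all above the activated WT values. The mean was 10.9 ± 0.505 FPKM in knockout and 5.56 ± 1.34 FPKM in activated WT cells (SD, n = 3 each), 1.96 times as high, with a log2 fold change of 0.88 (SE 0.140, 95% interval 0.56 to 1.20, limma adjusted p = 0.0270). The size was stable, at 0.75 to 1.04 under 19 alternatives, but the call was not. The adjusted p was 0.0557 without naive WT replicate 1, 0.0564 without activated WT replicate 1, 0.0856 without activated WT replicate 2, 0.0916 without knockout replicate 2 and 0.109 without knockout replicate 3. It was 0.0697 when only the 6 libraries compared were fitted.

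Adenosine is also removed by Adk, a kinase that turns it back into AMP inside the cell. Adk was at 32.8 ± 2.21 FPKM in knockout and 30.3 ± 3.40 FPKM in activated WT cells (SD, n = 3 each; log2 fold change 0.11, limma adjusted p = 0.547). The log2 ratio of Ada over Adk was -1.61, -1.33 and -1.57 in knockout libraries and -2.19, -2.50 and -2.12 in activated WT libraries. Adk thus exceeded Ada everywhere, by less in the knockout, and the groups did not overlap. The Ada values had no overlap and Adk differed little, so the ratios could not overlap. The permutation p was thus fixed in advance at its smallest value and adds no support to the Ada call. The means differed by 0.77 (exact permutation test, two-sided, p = 0.1, the smallest possible; adjusted p = 0.15). Between activated WT and naive WT cells the same ratio differed by -0.18, with overlap (exact permutation p = 0.6, adjusted p = 0.6).

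The promoter of Ada is shown because it held the only STAT match among the matched promoters. The 250 bases before its start (RefSeq, GRCm38.p6, chr2:163750240-163750489, minus strand) carry TTCNNNGAA, in capitals, 90 bases upstream.
Ada promoter: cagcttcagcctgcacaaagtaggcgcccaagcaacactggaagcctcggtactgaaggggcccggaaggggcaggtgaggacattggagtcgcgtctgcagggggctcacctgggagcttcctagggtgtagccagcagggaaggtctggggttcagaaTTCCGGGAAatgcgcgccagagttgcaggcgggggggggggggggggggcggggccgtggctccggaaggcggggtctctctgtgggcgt
The neighbouring gene Pkig, whose end lies 426 bases from Ada, had means of 21.4 FPKM in knockout, 14.7 FPKM in activated WT and 3.56 FPKM in naive WT libraries. As the strand setting is not given, reads that run past a gene's end cannot be assigned with certainty.

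**Figure D3:**
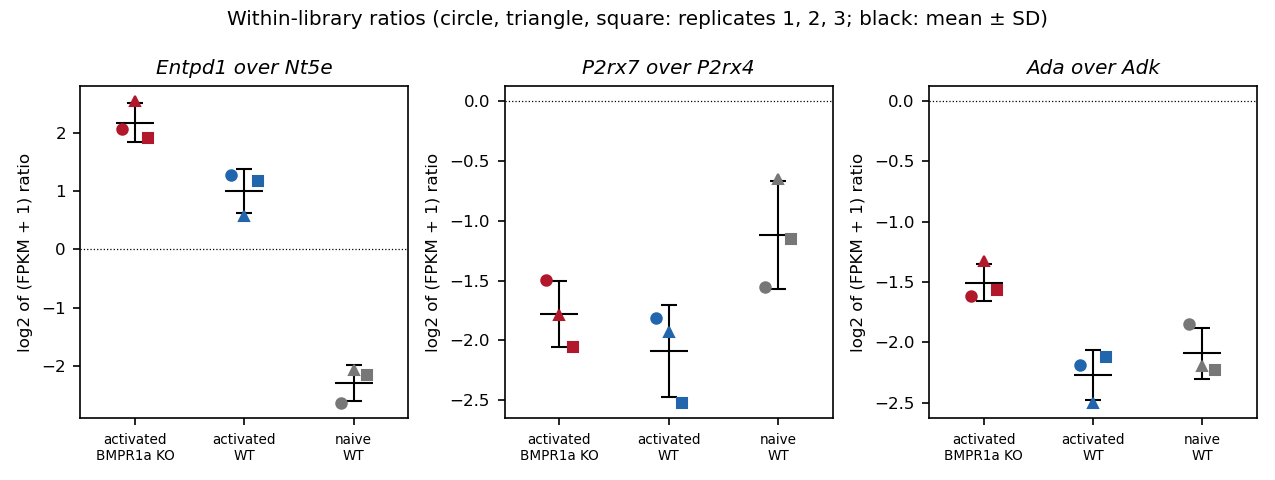
Log2 ratio of (FPKM + 1) of Entpd1 over Nt5e, P2rx7 over P2rx4 and Ada over Adk in each library of the activated BMPR1a knockout, activated WT and naive WT groups, with symbols for replicates 1, 2 and 3 and the mean ± SD in black (n = 3). Entpd1 over Nt5e is above 0 in both activated groups and below 0 in naive WT libraries, and Ada over Adk is nearest 0 in the knockout libraries.

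Entpd1 was read at 13.4, 10.1 and 11.5 FPKM in knockout libraries and at 8.09, 7.39 and 6.43 FPKM in activated WT libraries. All knockout libraries lay above all activated WT ones, and the mean was 11.6 ± 1.65 FPKM in knockout and 7.30 ± 0.832 FPKM in activated WT cells (SD, n = 3 each). The log2 fold change of 0.60 (95% interval 0.09 to 1.12) did not pass the adjusted threshold (limma adjusted p = 0.145). Nt5e was at 2.43, 0.902 and 2.31 FPKM in knockout libraries and at 2.77, 4.64 and 2.30 FPKM in activated WT libraries, with overlap and a low value in knockout replicate 2. Its log2 fold change was -0.57 (95% interval -1.20 to 0.07, limma adjusted p = 0.243). The log2 ratio of Entpd1 over Nt5e was 2.06, 2.54 and 1.91 in knockout libraries and 1.27, 0.57 and 1.17 in activated WT libraries. These did not overlap, with a difference of 1.17 (exact permutation test, two-sided, p = 0.1, adjusted p = 0.15). Given the Entpd1 and Nt5e ranges, the ratios could not overlap, so this p was also fixed in advance and adds no support. CD39 is known as a surface marker of regulatory T cells in mice. Of 3 Treg markers (Foxp3, Ikzf2 and Gpr83) 2 were called higher in knockout cells, where 3.30% of all tested genes were called higher. Foxp3 was at 5.89, 2.21 and 4.31 FPKM in knockout libraries and at 1.02, 0.989 and 0.867 FPKM in activated WT libraries (log2 fold change 1.32, limma adjusted p = 0.0351), and Gpr83 overlapped between the groups and was not called (log2 fold change 0.27, limma adjusted p = 0.372). The list summed to 8.97 to 13.7 FPKM in knockout, 4.95 to 5.22 FPKM in activated WT and 6.16 to 8.13 FPKM in naive WT libraries, although Foxp3GFP+ cells were sorted away. Nt5e did not rise with these markers, with means of 1.88 FPKM in knockout and 3.24 FPKM in activated WT libraries. The B cell list summed to 130 to 196 FPKM in knockout and 140 to 177 FPKM in activated WT libraries. The part of Foxp3GFP+ cells or B cells in the Entpd1 values was not tested. Of all genes, 626 were called in this comparison, 92 with only the 6 libraries and 58 with the replicate block. Whether the Foxp3 and Ikzf2 calls held there is not given here.

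Adora2a was at 20.7, 16.7 and 18.5 FPKM in knockout libraries and at 21.3, 21.6 and 22.1 FPKM in activated WT libraries. All knockout values were below the activated WT ones, but the difference was small (log2 fold change -0.21, 95% interval -0.46 to 0.04, limma adjusted p = 0.263). Cd38 was at 7.45, 5.77 and 7.61 FPKM in knockout libraries, on both sides of the activated WT values of 6.01, 6.25 and 6.39 FPKM. Its interval was wide (log2 fold change 0.13, 95% interval -0.73 to 0.995, limma adjusted p = 0.879). The fit shares 1 spread over all 9 libraries, naive WT included. The SD of Cd38 was 1.59 FPKM around a mean of 1.72 in naive WT. It was 1.02 around 6.94 in knockout and 0.193 around 6.22 in activated WT libraries. Per 100 FPKM of B cell markers, Cd38 stood at 3.91, 4.44 and 3.88 in knockout libraries and 4.28, 4.09 and 3.61 in activated WT libraries.

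P2rx4 was at 21.6, 18.8 and 21.2 FPKM in knockout libraries and at 20.7, 23.9 and 26.7 FPKM in activated WT libraries, which overlapped (log2 fold change -0.20, 95% interval -0.51 to 0.12, limma adjusted p = 0.422). P2rx7 was at 7.01, 4.74 and 4.35 FPKM in knockout libraries and at 5.17, 5.54 and 3.81 FPKM in activated WT libraries, with overlap (log2 fold change 0.11, 95% interval -0.33 to 0.56, limma adjusted p = 0.772). Knockout replicate 1 alone was above the activated WT range, and without it the sign turned, at -0.063, as it did without activated WT replicate 3, at -0.019. The log2 ratio of P2rx7 over P2rx4 was -1.49, -1.79 and -2.05 in knockout and -1.81, -1.93 and -2.52 in activated WT libraries, which overlapped (difference 0.31, exact permutation p = 0.4, adjusted p = 0.48).

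**Figure D4:**
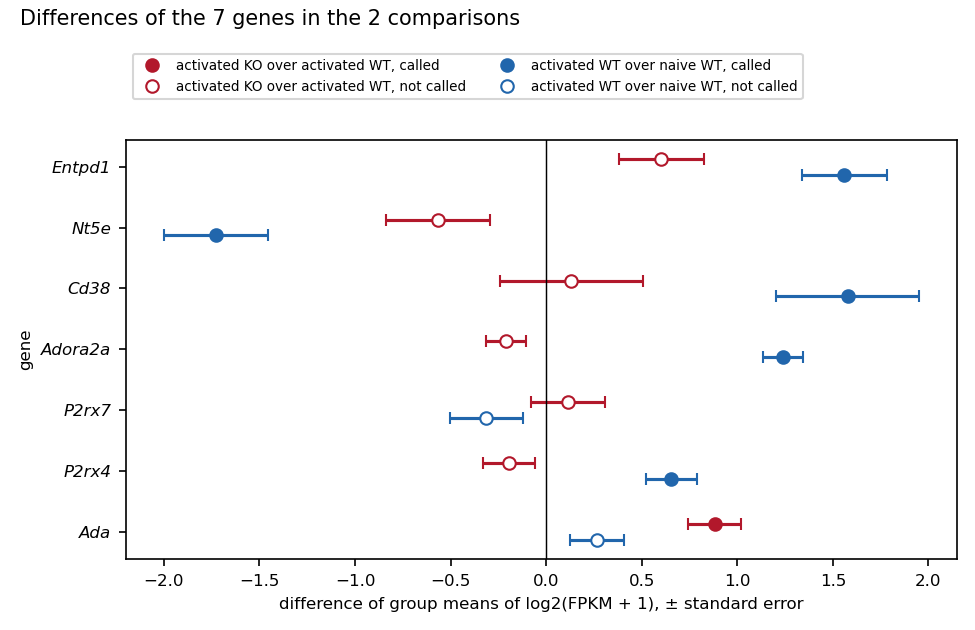
Difference of group means of log2(FPKM + 1) (x axis, ± standard error) for the 7 genes (rows) in activated BMPR1a knockout over activated WT cells (red) and in activated WT over naive WT cells (blue), filled where the gene was called. Only Ada is called in the knockout comparison (0.88), and 5 genes are called in the activation comparison, from Nt5e at -1.73 to Cd38 at 1.58.

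Activated knockout and naive WT cells differ in genotype and activation together, and the comparison shares its libraries with the other comparisons. Of the 7 genes 6 were called, all but P2rx7, 5 higher and 1 lower, where 31.8% of all tested genes were called higher, 25.1% lower and 56.9% in either direction. The log2 fold changes were 2.16 for Entpd1, 1.71 for Cd38, 1.15 for Ada, 1.03 for Adora2a, 0.46 for P2rx4, -0.20 for P2rx7 and -2.30 for Nt5e. The call of P2rx4 (limma adjusted p = 0.0203) was lost without naive WT replicate 2 (0.0549), knockout replicate 1 (0.0625) or knockout replicate 3 (0.0631).

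The wider set of purine genes comprised 76 other symbols for ectonucleotidases, NAD enzymes, receptors, adenosine and AMP enzymes, transporters, ATP release and the cyclic AMP arm. Of these, 71 were in the table and 45 reached the mean of 0.5 FPKM for testing. In activated WT against naive WT cells 18 of the 45 were higher, 11 were lower and 16 did not pass. Of all tested genes, 26.2% were called higher, 25.8% lower and 52.0% in either direction. The median log2 fold change of the 45 was 0.11, beside -0.01 for all tested genes. In activated knockout against activated WT cells 2 were higher, 2 were lower and 41 did not pass, where 4.14% of all tested genes were called. The median of the 45 was 0.02, beside 0.06 for all tested genes. Adora1, Art2a, Entpd8, Nt5c1a and Pnp were not analysed here.

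Among the ectonucleotidases, Enpp1, which cleaves ATP to AMP and pyrophosphate, was higher in activated WT cells (6.62 ± 0.879 FPKM, against 3.79 ± 0.523 FPKM in naive WT; SD, n = 3 each; log2 fold change 0.67). Of the relatives of Entpd1 that reside mainly inside the cell, 2 were lower and 2 were not called: Entpd6 was at 11.4 ± 1.39 FPKM in activated WT and 22.8 ± 1.95 FPKM in naive WT cells (log2 fold change -0.94), Entpd5 fell by 0.45, Entpd4 had a log2 fold change of -0.03 (adjusted p = 0.855) and Entpd7 of 0.20 (adjusted p = 0.205). Bst1, a relative of Cd38 that lies beside it on chromosome 5 and also cleaves NAD, was at 7.13, 5.20 and 8.47 FPKM in activated WT libraries and at 0.0488, 1.05 and 0.266 FPKM in naive WT libraries. The groups did not overlap, and the log2 fold change was 2.49 (SE 0.394, limma adjusted p = 0.00132). Art2b, whose product modifies P2rx7 with ADP-ribose on mouse T cells, was lower in activated WT cells (22.5 ± 2.50 FPKM, against 39.5 ± 9.35 FPKM in naive WT; SD, n = 3 each; log2 fold change -0.76, limma adjusted p = 0.0284). This call was lost without naive WT replicate 2 (0.0897) or any 1 activated WT replicate (0.0916, 0.0534 and 0.0573 without replicates 1, 2 and 3). Its near copy Art2a-ps could share reads with it, and stood at 0.740 FPKM in activated WT and 1.48 FPKM in naive WT libraries.

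Of the genes listed by P2Y name, which encode G protein-coupled receptors, 3 of 9 were tested. All 3 were higher in activated WT cells, where 26.2% of all tested genes were. The list goes by name and does not show that each receptor binds nucleotides. P2ry10 was at 84.1 ± 5.05 FPKM in activated WT and 29.2 ± 3.11 FPKM in naive WT cells (SD, n = 3 each; log2 fold change 1.50), and its neighbour and close relative P2ry10b rose by 0.41. P2ry14, a receptor for UDP-sugars, rose by 1.57 (limma adjusted p = 0.00560); it was named after its values were seen.

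The intracellular enzymes of adenosine and AMP split. Ahcy, which releases adenosine from S-adenosylhomocysteine, was higher in activated WT cells (43.7 ± 8.68 FPKM, against 14.8 ± 0.522 FPKM in naive WT; SD, n = 3 each; log2 fold change 1.49), as were Adk (0.44) and the cytosolic nucleotidase Nt5c2 (0.44). The AMP deaminases, which turn AMP into IMP, were lower: Ampd3 was at 0.523 ± 0.0909 FPKM in activated WT and 7.45 ± 0.329 FPKM in naive WT cells (log2 fold change -2.47), Ampd1 at 2.48 ± 0.168 FPKM in activated WT and 12.0 ± 2.95 FPKM in naive WT cells (log2 fold change -1.87), and Ampd2 changed by -0.34. Nt5c3b fell by 0.20, a call that ended without naive WT replicate 1. Ampd3 had the largest fall of the 52 tested purine genes. AMPD3 is known as the AMP deaminase of red blood cells in humans, and a list of 6 red cell and platelet markers moved in the same comparison, summing to 2.14, 1.078 and 3.31 FPKM in activated WT libraries and to 63.9, 84.0 and 73.7 FPKM in naive WT libraries, with 4 of its 5 tested genes called lower. The part of red cells in the Ampd3 values was not tested.

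Of the carriers, the nucleoside transporter Slc29a1 rose by 0.39 and the channel Panx1, through which ATP can leave cells, rose by 0.47 in activated WT cells. Slc17a9, which loads ATP into vesicles, was lower at 20.1 ± 1.47 FPKM in activated WT and 43.9 ± 3.88 FPKM in naive WT cells (SD, n = 3 each; log2 fold change -1.09).

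In the cyclic AMP arm that Adora2a feeds, 8 of 16 tested genes were higher in activated WT cells and 1 was lower. Of all tested genes, 26.2% were called higher, 25.8% lower and 52.0% in either direction. Crem, a transcription factor gene induced by cyclic AMP, was at 61.0, 62.0 and 55.4 FPKM in activated WT libraries and at 6.83, 10.5 and 7.44 FPKM in naive WT libraries. The groups were far apart, and the log2 fold change was 2.73 (SE 0.145, limma adjusted p = 9.31e-06). On the log2(FPKM + 1) scale this was the largest rise among the 52 tested purine genes. By the ratio of group means Bst1 rose more, 15.3 times beside 7.22 times for Crem. Gnas, which encodes the Gs subunit, rose by 0.59, the cyclic AMP phosphodiesterase Pde4d by 1.17, the kinase regulatory subunit Prkar1a by 0.50 and the adenylyl cyclase Adcy6 by 0.31, while the cyclase Adcy3 fell by 0.49. The Adcy6 call ended without naive WT replicate 3 (adjusted p = 0.0517) or activated WT replicate 3 (0.0542). Pde3b rose by 0.74, with a naive WT replicate 2 at 59.5 FPKM beside 31.5 and 27.0 FPKM in the other naive libraries. That call was lost in 11 of 19 alternatives, including each setting without a library other than naive WT replicate 2 (adjusted p up to 0.120).

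**Figure D5:**
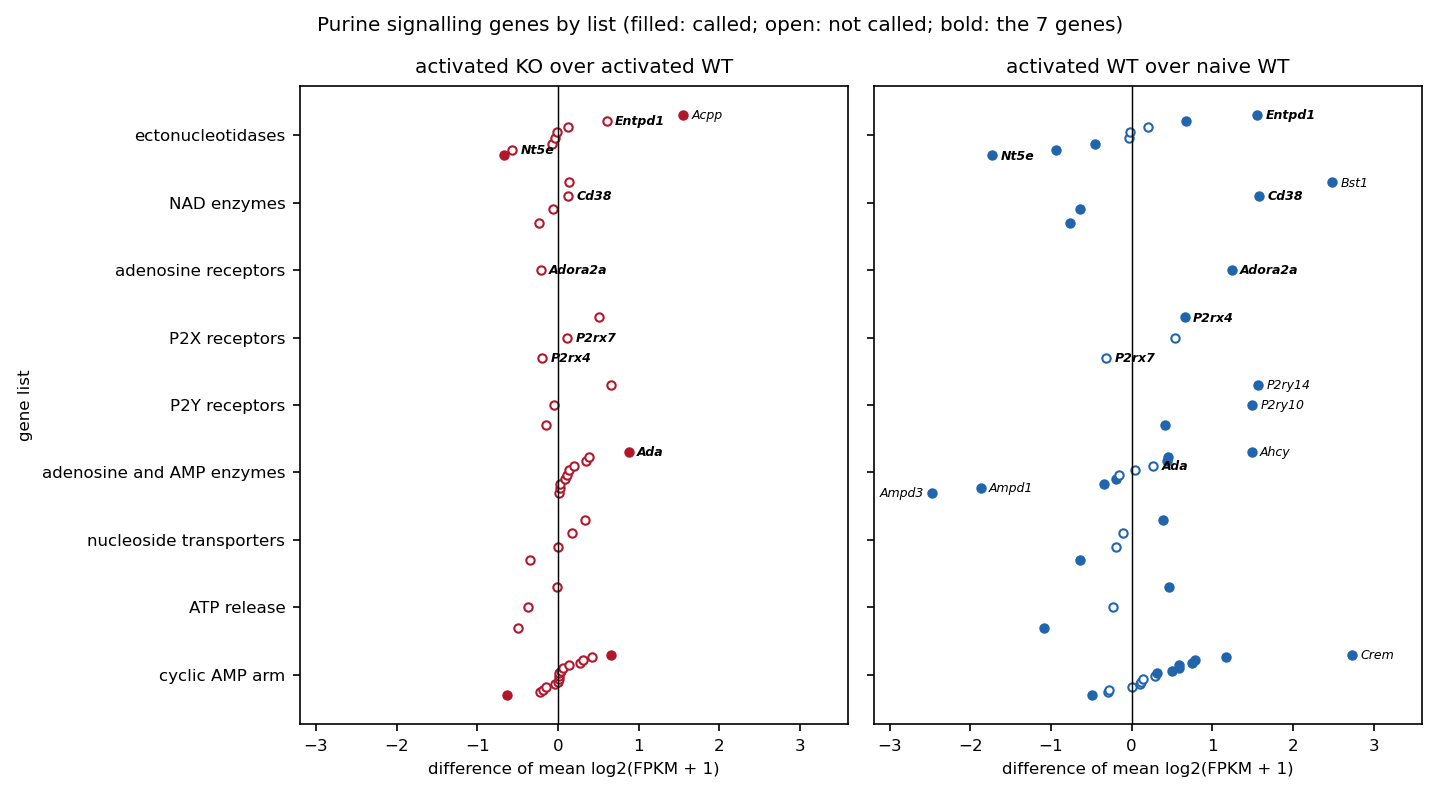
Difference of mean log2(FPKM + 1) (x axis) for each tested gene of 9 purine lists (rows), in activated BMPR1a knockout over activated WT cells (left) and activated WT over naive WT cells (right); filled points were called, and the 7 genes of the report are in bold. In the right panel Crem (2.73) and Bst1 (2.49) lie farthest to the right and Ampd3 (-2.47) farthest to the left, while in the left panel Acpp (1.56) and Ada (0.88) are the highest.

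Outside the 7, the knockout comparison called 4 purine genes. Acpp, a phosphatase that can dephosphorylate AMP, was at 19.2, 38.3 and 18.5 FPKM in knockout libraries and at 5.04, 7.82 and 10.4 FPKM in activated WT libraries, without overlap (log2 fold change 1.56, SE 0.307, limma adjusted p = 0.0410). Prkar2a, another regulatory subunit of the cyclic AMP-dependent kinase, was at 8.72 ± 1.61 FPKM in knockout and 5.13 ± 0.277 FPKM in activated WT cells (log2 fold change 0.65, limma adjusted p = 0.0480). Adcy6 was at 10.5 ± 1.01 FPKM in knockout and 16.8 ± 1.50 FPKM in activated WT cells (SD, n = 3 each; log2 fold change -0.63, limma adjusted p = 0.0201). Entpd4 was at 6.54 ± 0.151 FPKM in knockout and 11.0 ± 1.13 FPKM in activated WT cells (log2 fold change -0.67, limma adjusted p = 0.0381), but it has the close copy Entpd4b on the same chromosome, at 6.80 ± 0.196 FPKM in knockout and 11.7 ± 1.34 FPKM in activated WT cells, and reads of the copies may not be separable. These calls were fragile: of 19 alternatives, 13 ended that of Acpp, 13 that of Prkar2a, 10 that of Entpd4 and 5 that of Adcy6. Each was lost without activated WT replicate 2, with adjusted p-values of 0.142 for Acpp, 0.163 for Prkar2a, 0.145 for Entpd4 and 0.0801 for Adcy6. Each was also lost without knockout replicate 2 or 3. Next to Ada in the list of adenosine and AMP enzymes, Ampd2 (log2 fold change 0.35, limma adjusted p = 0.0508) and Nt5c3b (0.20, adjusted p = 0.0753) missed the threshold, as did the adenosine transporter Slc29a1 (0.33, adjusted p = 0.0526).

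Across the 9 libraries, the genes whose log2(FPKM + 1) followed each member most closely were listed as a description, since the naive and activated groups set most of these correlations. Among named genes averaging 5 FPKM or more they were Fam110a (Pearson r = 0.991), Nfkb1 (0.987) and Dstn (0.986) for Entpd1. They were Zfp182 (0.990), Sf3b1 (0.984) and Caml (0.984) for Nt5e, and Leprot (0.989), Swap70 (0.988) and Fis1 (0.987) for Cd38. Adora2a was followed by Zfp358 (0.994), Fbxl8 (0.992) and Adipor1 (0.992), and P2rx4 by Evl (0.984), Fam169b (0.977) and Tut4 (0.974). For Ada they were Aagab (0.973), Gatad2a (0.968) and Mtmr9 (0.965). P2rx7, which was called in no comparison, had the loosest match, with Gcc2 (0.868), Mylpf (0.855) and Kpna4 (0.849). Among the members themselves, Cd38 and Adora2a ran closest together (0.91 over 9 libraries) and Entpd1 and Nt5e farthest apart (-0.88).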

How the data were processed

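Gene expression was measured by RNA sequencing of 9 libraries, 3 per group, with groups taken from the sample titles. The authors deposited 1 table of FPKM values, with each library in its own column. The tools were TopHat2, Cufflinks and Cuffdiff on GRCm38, per the submitters' processing notes. Not given in the sources used here: versions, annotation, strandedness and the handling of multi-mapped reads. Gene positions are from GENCODE on GRCm38. Read depth is unknown, so no counting interval was computed. Of 25759 rows, 24876 matched a symbol. The 15126 genes averaging 0.5 FPKM or more entered limma 3.58.1 (R 4.3.3) as log2(FPKM + 1) values (moderated test with intensity trend, 9 libraries, group means, two-sided, Benjamini-Hochberg over all tested genes, called at an adjusted p under 0.05). This scale understates changes of low genes. The fit was checked on simulated data. Within-library ratios were compared by exact permutation. The 7 genes, the lists and the tests were chosen with earlier results of these data known. Other purine genes are named where called in either of the first 2 comparisons with a mean of at least 5 FPKM in the higher group; Ampd2, Nt5c3b and Slc29a1 met this through activation, and Foxp3 and marker sums come from marker lists. Some items are not reported here. The 19 alternatives changed the pseudocount (0.1 or 0.5), filter, scaling, weights, trend, libraries or replicate block.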

Additional observations from a re-analysis of the deposited data

How the results depend on the processing

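Of the 21 member results, all kept their direction under the 19 alternatives except P2rx7 in knockout against activated WT cells, which was -0.074 with array quality weights, -0.019 without activated WT replicate 3 and -0.063 without knockout replicate 1, and ranged from -0.063 to 0.23 with 1 library left out (0.11 in the reported fit). The number of all genes called in that comparison was unstable: 626 in the reported fit, 416 without a filter, 306 with median-of-ratios scaling, 324 with quantile normalization, 92 with only the 6 libraries, 3851 with array quality weights, and 64 to 1037 with 1 library left out. The share called higher was 79.7% in the reported fit, 54.2% with median-of-ratios scaling and 56.5% with quantile normalization. No pairing by replicate number was seen (correlations of same-numbered deviations 0.0027 to 0.0540), and the labels do not say whether samples were paired. With the replicate block, 58 genes were called and the limma adjusted p of Ada was 0.0710. Members called were 0 with the replicate block and 0 with only the 6 libraries, and 0 to 1 with 1 library left out. In activated WT against naive WT cells 5 to 6 members and 6702 to 7744 genes were called with 1 library left out, and 5 to 6 members and 7415 to 8600 genes in knockout against naive WT cells. FPKM without counts limits what can be said of low values such as those of Nt5e in activated cells.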
